A study of Mus musculus with 6 samples.

Results

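The secreted Wnt antagonists are extracellular proteins that hold Wnt signalling down, and 9 of their genes were examined here: the secreted frizzled-related proteins Sfrp1, Sfrp2, Sfrp4, Sfrp5 and Frzb (also called Sfrp3), the Dickkopf genes Dkk1, Dkk2 and Dkk3, and Wif1. Members were all probe sets whose single gene symbol in the platform annotation is one of these names, which gave 17 of 45037 probe sets. Expression was measured on 1 Affymetrix array for each of 6 cultures of primary fibroblasts of the dermis, the skin layer they fill with matrix, from strain B6 mice aged 0 to 2 days and of mixed gender. All cultures were at passage 4, with an explant of its own behind every biological replicate. The sources used here do not say whether several pups were pooled. Nor do they say whether a treated and a control culture of the same number came from a shared explant. The 3 treated cultures received 5-aza-2'-deoxycytidine at 5 µM for 96 hours, with fresh drug every 24 hours, followed by 24 hours in normal medium. The 3 control cultures were untreated. Also called decitabine, the drug is a nucleoside analogue that traps DNA methyltransferases once incorporated, and methylation at CpG dinucleotides is then lost over cell divisions. The study asks which transcripts differ after this exposure.

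Wnt ligands bind Frizzled receptors together with the co-receptors Lrp5 and Lrp6, which stabilises beta-catenin and lets it activate genes through Tcf and Lef factors. Secreted frizzled-related proteins carry a cysteine-rich domain like that of Frizzled receptors and bind Wnt ligands outside the cell, and Wif1 binds Wnt ligands through a different domain. Dkk1 and Dkk2 bind Lrp5 and Lrp6 instead and form complexes with Kremen proteins, while Dkk3 is a divergent member of its family. In skin, Wnt signals between epidermis and dermis guide hair follicle formation, and in many tumours the promoters of these antagonists are methylated.

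Values are MAS5 signals in signal units, scaled so that all 6 arrays had the same trimmed mean. On log2 signals of all probe sets, arrays of the same group correlated at 0.967 to 0.970 and arrays of different groups at 0.925 to 0.935. A log2 change is treated minus control on log2(signal + 9.66), which understates the change of dim probe sets, and it is given with its standard error from limma. Testing required a signal above the array's median on at least 3 of the 6 arrays. A probe set was called where the p-value from limma was under 0.05 after Benjamini-Hochberg adjustment across the 23388 tested. Each group has n = 3 arrays.

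Sfrp1 and Sfrp2 fell steeply in treated cultures, Dkk2 and Dkk3 fell less, and Frzb rose about 2.01-fold. Sfrp4 and Sfrp5 did not pass the test, and Dkk1 and Wif1 were too dim on every array to be tested. Of the 7 tested genes, each counted by the probe set that was brightest when log2 signals were averaged, 4 were called lower, where 21.6% of all tested genes were, and 1 was called higher, where 19.5% were, or 41.1% in both directions. Of the 17 probe sets, 14 passed the filter on dim signals, and 9 were called lower and 1 higher by limma; over all tested probe sets 20.3% were called lower and 18.4% higher, or 38.7% in all. Of those that passed, 1 did so through the controls alone, with no treated signal above the array median. Others also relied on the controls to reach 3 arrays. Sfrp1 probe sets 1438620_x_at and 1448395_at and Sfrp5 probe set 1436075_at had 1 treated array above the median. Sfrp1 probe set 1460187_at and Sfrp5 probe set 1423023_at had 2. With no filter the same counts were obtained, 9 lower and 1 higher of 17, against 9.80% lower and 9.07% higher of all probe sets. Sfrp1 alone supplied 5 of the lower probe sets, and probe sets of the same gene are not independent readings. By gene, 4 were lower and 1 higher of 9 with no filter, against 13.0% lower and 12.2% higher of all genes. The median log2 change over all 9 genes was -0.59 in that fit, against 0.02 over all genes. Between the groups 11 of the 14 tested member probe sets did not overlap, as was true of 50.4% of all tested probe sets.

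**Figure D1:**
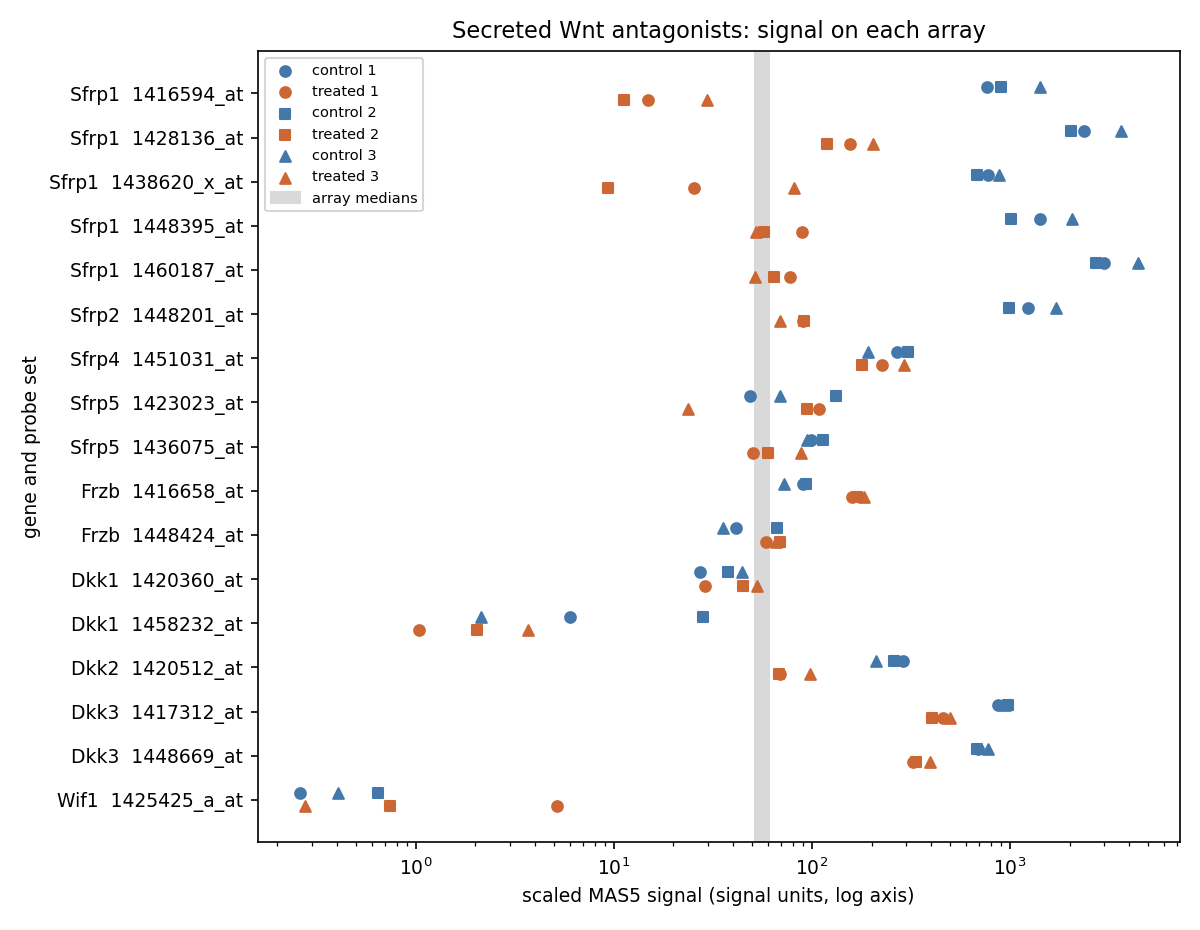
Scaled MAS5 signal (x axis, log scale, signal units) of every member probe set (y axis) on each of the 6 arrays, with controls in blue, treated arrays in orange and symbols for the replicate number; the grey band spans the medians of the arrays. All 5 Sfrp1 probe sets and that of Sfrp2 lie at 685 or above in controls and at 204 or below in treated arrays, while the Sfrp4 groups overlap and Wif1 lies far below the array medians.

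Sfrp1 encodes a Wnt-binding protein that is widely expressed in mesenchymal cells, and it was measured by 5 probe sets, which share their target gene and are not independent readings. Averaged on the log2 scale, 1428136_at was the brightest of these, and it had signals of 2377, 2044 and 3623 in controls 1 to 3 and of 156, 119 and 204 in treated cultures 1 to 3. Every control signal was at least 10 times the signals of the treated group, and the groups were far apart. The mean went from 2681 ± 833 (SD, n = 3) to 159.8 ± 42.7, for a log2 change of -3.98 ± 0.23 (SE; limma adjusted p = 1.49e-06), which was the 23rd lowest of 12194 tested genes. In controls this probe set lay between the percentiles 97.4 and 98.7 of the array, and in treated cultures between 65.8 and 75.7, above the array median on all 3.

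The other 4 Sfrp1 probe sets fell as well, by log2 changes of -4.29 to -5.49, and most of their treated signals lay below the array medians. Probe set 1460187_at had 2986, 2710.2 and 4420.5 in controls and 77.8, 64.6 and 51.7 in treated cultures, for a log2 change of -5.49 ± 0.19 (limma adjusted p = 9.63e-08; 95% confidence interval -5.91 to -5.06). Probe set 1448395_at had 1422, 1013 and 2060.0 against 88.6, 57.2 and 51.9 (log2 change -4.29 ± 0.25). Probe set 1416594_at had 769, 900.1 and 1425 against 14.8, 11.2 and 29.4 (-5.21 ± 0.28), and it is the one that passed the filter through the controls alone. All 3 of these were designed on 1 shared transcript entry, per the platform annotation. Probe set 1438620_x_at, whose name marks probes that other transcripts can share, had 771, 685 and 875 against 25.3, 9.39 and 81.6 (-4.32 ± 0.45). On the log2 scale its treated replicates differed from each other more than those of the other Sfrp1 probe sets. Where treated signals lie this low, the size of the fold depends on the pseudocount, and for 1416594_at it ranged from -5.68 with a smaller pseudocount to -4.19 with a larger one. The order of the Sfrp1 probe sets by size of fall depends on it too, since with the smaller pseudocount 1460187_at gave -5.64.

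Sfrp2, a Wnt-binding protein abundant in dermal fibroblasts, was measured by 1 probe set, with signals of 1238, 983 and 1698 in controls and 90.1, 91.5 and 69.0 in treated cultures. The lowest control was more than 10 times the highest treated signal. The mean went from 1306 ± 363 (SD, n = 3) to 83.5 ± 12.6, for a log2 change of -3.79 ± 0.19 (SE; limma adjusted p = 7.19e-07; 95% confidence interval -4.22 to -3.37). That was the 25th lowest change of the tested genes. A called fall of at least log2 3 was found for 53 of the 12194 tested genes, or 0.435%, and Sfrp1 and Sfrp2 were both among them.

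Sfrp1 and Sfrp2 had a similar order among the 3 controls, which are too few for a correlation. Control 3 had the highest signal for all 5 Sfrp1 probe sets and for Sfrp2, and control 2 the lowest for Sfrp2 and for 4 of the 5. This order is not particular to the pair. Control 3 was also highest for other fibroblast genes such as Dcn (6311, 6846 and 8256 in controls 1 to 3). It was lowest for Pdgfra (3832, 3398 and 3199.7). Within each array the log2 signal of Sfrp1 (1428136_at) exceeded that of Sfrp2 by 0.94, 1.05 and 1.09 in controls and by 0.73, 0.35 and 1.44 in treated cultures. The treated mean of this difference was lower by 0.18, less than its spread between treated replicates (SD 0.56). A difference in the size of the 2 falls was thus not resolved at 1428136_at, the Sfrp1 probe set that fell least. This depends on the probe set. The 95% confidence intervals of 1460187_at (-5.91 to -5.06) and 1416594_at (-5.83 to -4.59) lay below that of Sfrp2 (-4.22 to -3.37). Those of 1448395_at and 1438620_x_at overlapped that of Sfrp2. Against Frzb, Sfrp1 probe set 1428136_at moved by -4.91, from 4.79 ± 0.60 (SD, n = 3) to -0.12 ± 0.32. For these 2 pairs exact two-sided permutation tests gave p = 0.7 and p = 0.1, where 0.1 is the smallest that 3 arrays against 3 allow, or 0.7 and 0.133 adjusted over the 4 pairs compared. The pairs were chosen after their values were seen, so these p-values support nothing.

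**Figure D2:**
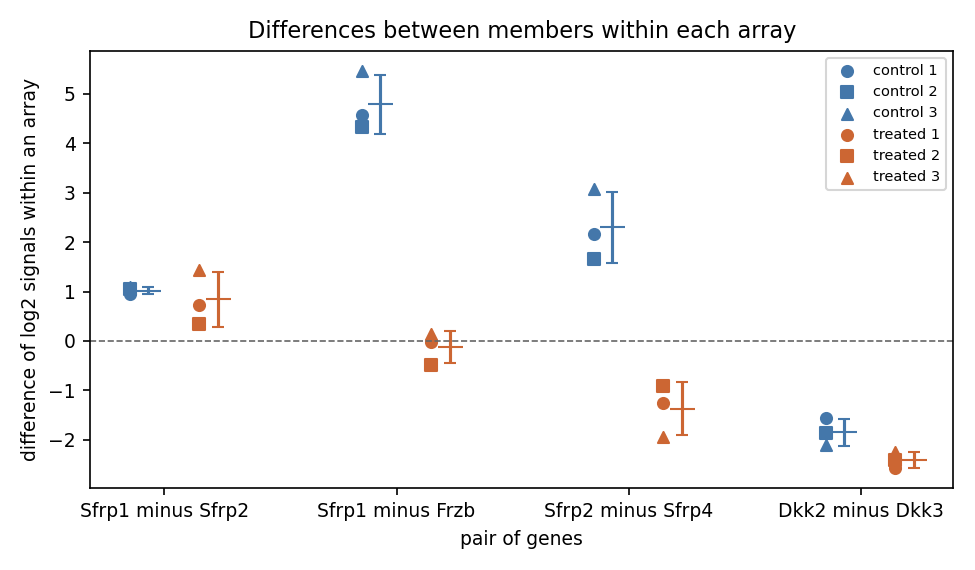
Difference between the log2 signals of a pair of genes (y axis) within each array, for 4 pairs (x axis), with controls in blue, treated arrays in orange, symbols for the replicate number, and bars for the mean and SD of each group. Only the shift between groups carries meaning, since probe sets of different genes bind with different strength: Sfrp1 minus Sfrp2 shifted by -0.18 and Sfrp1 minus Frzb by -4.91.

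Frzb, the antagonist first described from cartilage, was the member that rose. Its brighter probe set, 1416658_at, had signals of 90.0, 92.9 and 72.1 in controls and 159, 169 and 183 in treated cultures, with no overlap. The mean went from 85.0 ± 11.3 (SD, n = 3) to 171 ± 11.9, for a log2 change of 0.93 ± 0.16 (SE; limma adjusted p = 0.00119; 95% confidence interval 0.58 to 1.28). The second probe set, 1448424_at, had 41.4, 67.0 and 35.7 against 58.3, 68.9 and 66.2, and control 2 lay inside the treated range. Its log2 change of 0.40 ± 0.27 did not pass (limma adjusted p = 0.284), with an interval of -0.21 to 1.00 that includes the change of the brighter probe set.

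Sfrp4 encodes a further secreted frizzled-related protein, and its levels overlapped between groups, with 269, 304 and 193 in controls and 227, 179.9 and 293 in treated cultures. Its log2 change of -0.13 ± 0.20 (limma adjusted p = 0.672) had a 95% confidence interval of -0.58 to 0.33. A fall of the size seen for Sfrp1 or Sfrp2 lies outside this interval, and the bound nearest to it is -0.58. Within each array, Sfrp2 minus Sfrp4 moved from 2.30 ± 0.72 (SD, n = 3) to -1.37 ± 0.53.

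Sfrp5 was measured by 2 probe sets near the array medians. The brighter, 1436075_at, had 99.1, 114 and 94.1 in controls and 50.5, 60.3 and 87.6 in treated cultures, so that the groups did not overlap but treated culture 3 lay close to the controls. Its log2 change of -0.59 ± 0.22 missed the threshold (limma adjusted p = 0.0609). It passed after quantile normalization (adjusted p = 0.047) and without treated replicate 3 (adjusted p = 0.0241), and over all 14 alternatives the adjusted p-values lay between 0.0241 and 0.171. The other probe set, 1423023_at, had 48.6, 133 and 69.0 against 109, 94.8 and 23.7, with both the highest and the lowest values spread over the groups. Its change of -0.22 ± 0.49 had an interval from -1.32 to 0.88.

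**Figure D3:**
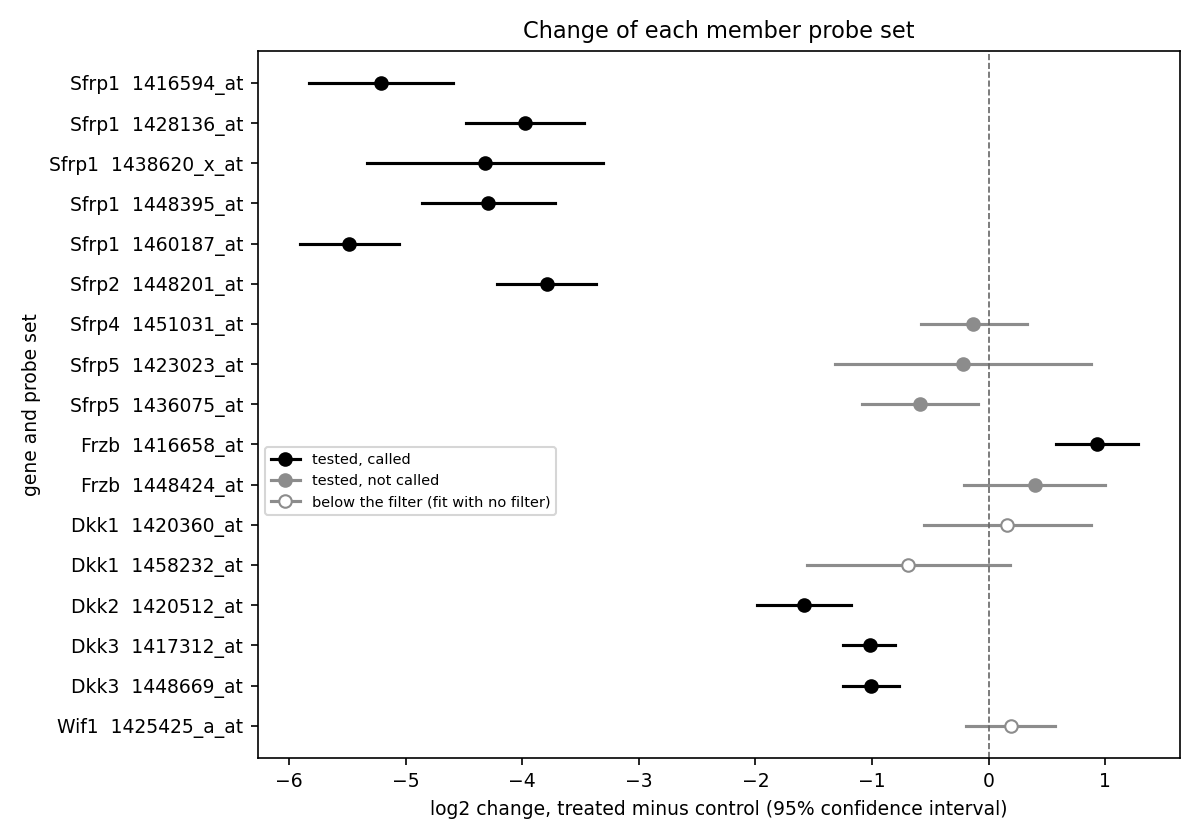
Log2 change, treated minus control (x axis), of each member probe set (y axis), with 95% confidence intervals from limma; black points passed an adjusted p of 0.05, grey points did not, and open points were below the filter and come from the fit with no filter. Sfrp1 and Sfrp2 lie between -5.49 and -3.79, Dkk2 and Dkk3 between -1.58 and -1.01, and the called Frzb probe set at 0.93.

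In the Dickkopf family Dkk2 and Dkk3 fell. Dkk2, a ligand of Lrp5 and Lrp6 that can act as an antagonist or a weak agonist, had signals of 289, 259.9 and 211 in controls and 69.2, 68.5 and 97.8 in treated cultures. Each treated signal lay below each control. The mean went from 253 ± 39.1 (SD, n = 3) to 78.5 ± 16.7, for a log2 change of -1.58 ± 0.18 (SE; limma adjusted p = 1.17e-04).

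Dkk3, a secreted protein that shares the family's cysteine-rich domains, was read by a pair of probe sets that gave nearly the same change. Probe set 1417312_at had 871, 974 and 946 in controls and 458, 406 and 499 in treated cultures, and 1448669_at had 691, 684 and 778 against 325, 336 and 395. In both, the groups were separate and the replicates were close together. Their log2 changes were -1.02 ± 0.10 and -1.01 ± 0.11 (limma adjusted p = 4.59e-05 and 7.11e-05). Both stayed well above the array median in treated cultures, at percentiles of at least 82.9.

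Dkk1 and Wif1 lay below the array median on all 6 arrays, and without detection calls a signal this low was not separated from background. Dkk1, a strong inhibitor of Lrp5 and Lrp6, had 27.1, 37.5 and 44.6 in controls and 29.0, 45.0 and 52.8 in treated cultures on probe set 1420360_at. Its second probe set, 1458232_at, had 6.04, 28.1 and 2.14 against 1.04, 2.04 and 3.69, and control 2 stood apart. In the fit with no filter the changes were 0.16 ± 0.31 and -0.69 ± 0.38, and neither passed (limma adjusted p = 0.804 and 0.287). Wif1 was at 0.259, 0.647 and 0.407 in controls and at 5.18, 0.744 and 0.277 in treated cultures. Its percentiles on the control arrays were 0.1 to 0.3, and treated culture 1 alone stood above the rest.

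The 10 called member probe sets kept their direction and their call under every alternative in which they were tested, which covered scaling, pseudocount, filter, variance model, replicate block and leaving out each array. The call for 1416594_at could not be repeated in 3 of those settings because it no longer passed the filter. Leaving out 1 array at a time moved Sfrp1 (1428136_at) between -4.16 and -3.74, Sfrp2 between -3.98 and -3.59, Dkk2 between -1.73 and -1.49, Dkk3 (1417312_at) between -1.09 and -0.94 and Frzb (1416658_at) between 0.83 and 1.00.

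The drug traps DNA methyltransferases, and methylation at CpG dinucleotides is then lost over cell divisions. The reference sequence before the start of 3 called members that RefSeq's GRCm38.p6 table holds is therefore given here. It is 250 bases for each, 5′ to 3′, with CpG dinucleotides in capitals. The table held windows for 6 of the 9 genes. The arrays measured RNA, and methylation of these bases was not measured here.
Sfrp2, chr3:83766071-83766320, + strand: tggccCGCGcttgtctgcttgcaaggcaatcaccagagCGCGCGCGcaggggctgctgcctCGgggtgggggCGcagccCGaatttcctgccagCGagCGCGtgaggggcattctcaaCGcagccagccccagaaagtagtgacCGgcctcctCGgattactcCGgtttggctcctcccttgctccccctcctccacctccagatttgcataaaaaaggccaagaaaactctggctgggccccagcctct
Dkk2, chr3:132085042-132085291, + strand: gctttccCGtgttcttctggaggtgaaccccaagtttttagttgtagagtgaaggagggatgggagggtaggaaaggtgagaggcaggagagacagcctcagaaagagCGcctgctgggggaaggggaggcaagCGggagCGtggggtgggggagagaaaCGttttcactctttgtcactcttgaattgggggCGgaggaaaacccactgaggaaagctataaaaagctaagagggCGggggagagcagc
Frzb, chr2:80447397-80447646, - strand: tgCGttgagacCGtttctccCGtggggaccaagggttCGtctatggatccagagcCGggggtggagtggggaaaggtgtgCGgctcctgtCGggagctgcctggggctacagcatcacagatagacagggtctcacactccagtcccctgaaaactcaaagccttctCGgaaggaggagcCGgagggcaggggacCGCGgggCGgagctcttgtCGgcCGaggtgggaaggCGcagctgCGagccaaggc

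Sfrp2, which fell, and Frzb, which rose, each held 16 CpGs in these windows, more than 74.6% of the 32851 windows in the table. Dkk2 held 7 CpGs, Sfrp5 13, Wif1 21 and Dkk1 6. Among tested genes with a window, the median was 16 CpGs for 1929 that were called higher, 16 for 2105 called lower and 15 for 5814 not called. The motif TATAAA, on either strand, was in the windows of Dkk2, Wif1 and Dkk1 and in 12.4% of all windows. GGGCGG was in those of Frzb, Dkk2, Wif1 and Sfrp5 and in 32.7% of all windows. CTTTGAT, one form of the core that Tcf and Lef factors bind, was in none of the 6 and in 3.21% of all windows. Other forms of that core were not searched. A GGGCGG match holds 1 of the CpGs, the other motifs none, and a match describes the sequence alone.

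Across the 6 arrays, the genes whose log2 signals correlated best with Sfrp1 (1428136_at) were Epc2 (r = 0.9999), Maf (0.9995) and Isoc1 (0.9990). Maf, a transcription factor of the bZIP type, went from a mean signal of 1829 to 171, and Epc2 from 553 to 324. For Frzb (1416658_at) they were the transporter Abcc4 (0.9989), the homeobox gene Rhox5 (0.9973) and the growth factor Tgfb1 (0.9969), with log2 changes of 1.65, 4.02 and 0.95. Among members, Sfrp1 correlated with Sfrp2 at 0.99, Dkk3 at 0.99, Dkk2 at 0.96, Sfrp5 at 0.81, Sfrp4 at 0.21 and Frzb at -0.98. These values are descriptions over 6 arrays in 2 groups, and they mostly restate the difference between the groups.

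Elsewhere in the pathway, 9 of 15 tested receptor genes fell and Wnt5a and Ccnd1 rose. Among the Frizzled receptors, co-receptors and Dkk receptors, 9 of 15 tested genes fell and 1 rose, with a median log2 change of -0.60, where 21.6% of all tested genes were called lower and the median over all genes was 0.00. Keeping dim probe sets in the fit left fewer calls for this list. The genes called lower were then 7 among the 17 on the array, beside 13.0% of all genes. There, 1 gene was called higher, and the list's median change was -0.49. Fzd1 and Fzd2, Wnt receptors, fell with log2 changes of -2.27 ± 0.10 and -1.95 ± 0.13 (SE; limma adjusted p = 2.77e-07 and 3.82e-06). The co-receptor Lrp6, which Dkk proteins bind, had a log2 change of -0.94 ± 0.10, from 588 ± 34.8 (SD, n = 3) to 302 ± 18.9. Fzd7 rose by 0.81 ± 0.10. Kremen1, the Dkk receptor that was tested, changed by -0.25 ± 0.17 (limma adjusted p = 0.293).

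Among other secreted modulators, 3 of 5 tested genes fell and 0 rose (median -1.26), where 21.6% of all tested genes fell; with no filter 3 of 13 fell and 0 rose, where 13.0% of all genes fell and 12.2% rose. The R-spondins Rspo3 and Rspo2 amplify Wnt signals through Lgr receptors. Rspo3 went from 364 ± 159 (SD, n = 3) to 30.0 ± 5.13, for a log2 change of -3.16 ± 0.27, and control 3 (547) was again its highest control. All 3 treated signals of Rspo3 lay below the array median, so it passed the filter through the controls alone. Rspo2 had a log2 change of -2.41 ± 0.17 at its brighter probe set and -0.35 (limma adjusted p = 0.336) at a dimmer one. Igfbp4, a binding protein for insulin-like growth factors that also inhibits Wnt receptors, changed by -1.26 ± 0.13, and Draxin by -0.18 ± 0.23 without passing.

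Of the Wnt ligands and their release factors, 2 of 10 tested genes rose and 1 fell (median 0.01), where 19.5% of all tested genes rose and 21.6% fell, so the count of rises is at the level of all genes. Wnt5a, a ligand that mostly signals without beta-catenin, rose from 512 ± 40.2 (SD, n = 3) to 1089.6 ± 47.3, for a log2 change of 1.08 ± 0.09, and 2 further probe sets gave 1.03 and 0.93, while a dim one changed by -0.73 (limma adjusted p = 0.0599). Wnt11 rose by 0.93 ± 0.23 (limma adjusted p = 0.0115), a call that was lost without treated replicate 2 (0.80, adjusted p = 0.0504). The ligand carrier Wls fell by 0.58 ± 0.08, and the acyltransferase Porcn changed by 0.35 ± 0.17 without passing (limma adjusted p = 0.138).

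Inside the cell, 5 of 20 tested genes fell and 1 rose, with a median of -0.05; the count of falls is near the 21.6% of all tested genes, and with no filter 3 of 22 fell and 1 rose. Dact1, a regulator that binds Dishevelled, fell with a log2 change of -1.40 ± 0.16, as did the kinase Gsk3b (-0.85 ± 0.10) and Dact3 (-0.37 ± 0.09), and the kinase Csnk1e rose (0.52 ± 0.11). Other Gsk3b probe sets changed by as little as -0.11 (limma adjusted p = 0.543), and the calls of Dact3 and Csnk1e were lost without scaling (adjusted p = 0.223 and 0.215). Beta-catenin itself, Ctnnb1, changed by 0.05 ± 0.07 (limma adjusted p = 0.64).

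The Tcf and Lef factors and known Wnt target genes had 3 of 12 tested genes higher and 4 lower (median -0.12), beside 19.5% and 21.6% of all tested genes. The factors Tcf7l1 and Tcf7l2 fell, with log2 changes of -1.49 ± 0.12 and -1.30 ± 0.17, as did the R-spondin receptor Lgr5 (-1.94 ± 0.23). Ccnd1, cyclin D1, rose from 977 ± 65.2 (SD, n = 3) to 2905 ± 209, for a log2 change of 1.56 ± 0.09 (limma adjusted p = 1.30e-06). Axin2, the feedback gene most often read as a Wnt response, had 75.7, 65.1 and 48.0 in controls and 41.8, 56.2 and 74.1 in treated cultures. These overlap, and its change of -0.12 ± 0.27 did not pass (limma adjusted p = 0.754). The Axin2 signals lay around the array medians of 51.4 to 60.6, which limits what they can show. In the same list Nkd1 fell at the brightest of its 4 tested probe sets (-0.87 ± 0.18, limma adjusted p = 0.00464). Myc rose (0.86 ± 0.14, limma adjusted p = 9.37e-04).

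**Figure D4:**
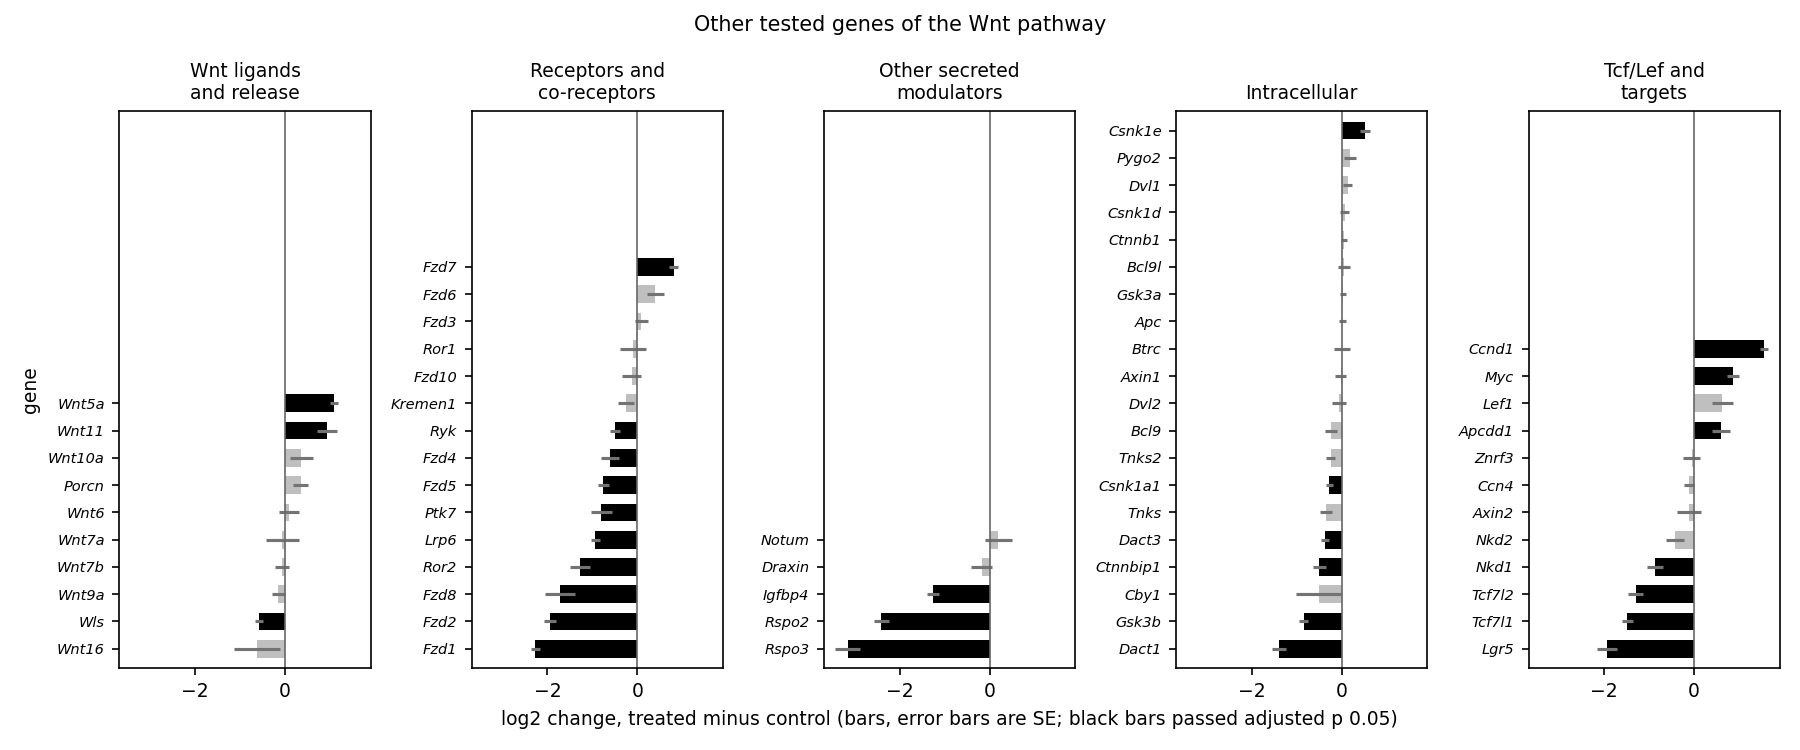
Log2 change, treated minus control (x axis), of the tested genes (y axis) in 5 lists of the Wnt pathway outside the members; bars are the change at the tested probe set that is brightest on the log2 scale, error bars its SE from limma, and black bars passed an adjusted p of 0.05. Fzd1 at -2.27 and Rspo3 at -3.16 are the lowest of their lists, and most intracellular genes lie near 0.

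Markers of other cells and of RNA quality were set beside these results. In bulk RNA, fewer cells of a type and less RNA per cell cannot be told apart. All 9 fibroblast markers lay above the array median on all 6 arrays; 7 fell, among them Pdgfra (-3.21 ± 0.18), 1 rose, and Vim changed by 0.13 ± 0.08. Their summed signal was 55527 to 61687 in controls and 30456 to 36540 in treated cultures. Summed signals were 198.1 to 285.7 and 235.7 to 291.4 for 6 keratinocyte markers, 298.9 to 346.2 and 277.8 to 381 for 6 endothelial markers, 232.8 to 324.9 and 290.2 to 454.6 for 6 leukocyte markers, and 497.6 to 672.7 and 537.8 to 630.3 for 6 melanocyte and Schwann cell markers. For 6 skeletal muscle markers the sum was 780.9 to 928 in controls and 4683 to 5394 in treated cultures, most of it Acta1, a muscle actin (means 549.5 and 4604); 2 of 3 tested rose, while the muscle regulator Myod1 stayed below the filter. Of the tested members of the preceding lists, 0 of 2 keratinocyte markers were called, and 1 of 4 endothelial markers rose and 1 fell. Among the rest, 1 of 2 leukocyte markers rose (Cd68) and 1 of 6 melanocyte and Schwann cell markers fell. Over all tested genes 19.5% were called higher and 21.6% lower, the shares to set beside every marker count given here. The endothelial marker Vwf was near 0, at means of 1.69 and 3.18, and the leukocyte marker Ptprc at 27.0 and 41.5. Other markers of these lists were brighter, with Kdr (endothelial) at means of 129 and 148 and Adgre1 (leukocyte) at 114 and 135. Of the 6 endothelial markers, 1 lay above the array median on all 6 arrays and 2 lay below it on all. For the 6 leukocyte markers these counts were 1 and 4. For Actb, the control probe set at the 3' end gave a signal 1.26 to 1.28 times that at the 5' end in controls and 1.14 to 1.18 times in treated cultures. For Gapdh the same ratio was 0.721 to 0.751 in controls and 0.747 to 0.792 in treated cultures, so the 2 genes moved in opposite directions. The part of these differences in the changes of the members was not tested.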

How the data were processed

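The deposited values are a signal intensity for each probe set on each array, made by the authors with MAS5, per the submitters' processing notes; the MAS5 settings and detection calls are not used here. The table was linear, with trimmed means from 149.22 to 223.91, so each array was scaled to a 2% trimmed mean of 193.2 without the 64 control probe sets. Signals became log2(signal + 9.66), with a pseudocount at 0.05 of the scaling target. Treated and control arrays were compared with limma 3.58.1 (lmFit, eBayes with an intensity trend, two-sided) under R 4.3.3, with the group as sole term, over 23388 tested probe sets. The procedure was tested on simulated data, where 19.1% of 1.5-fold, 51.3% of 2-fold and 85.3% of 4-fold changes were recovered. Far fewer probe sets were changed there than were called here, so these shares do not carry over directly. Groups came from the sample titles.

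The platform annotation gave names: 34945 probe sets had 1 gene, 932 several and 9160 none listed; 34741 were found in RefSeq GRCm38.p6 through their Entrez identifier, which altered 0 symbols. All 9 members were named whatever their values; from each of 5 Wnt pathway lists, up to 4 tested genes with the smallest p; and for the called members with the largest rise and fall of the gene, the 3 genes of highest Pearson correlation over the arrays. Ctnnb1, Axin2, Nkd1, Myc, Kremen1 and the markers singled out were chosen after their values were seen. Members and lists were chosen with earlier results of these data known. Alternatives were other scalings, pseudocounts, filters and variance models, a replicate block, the mean over probe sets, and leaving out each array. The number of arrays limits the precision.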

Additional observations from a re-analysis of the deposited data

How the results depend on the processing

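Without scaling, 5019 probe sets passed in place of 9040; the cause was not tested. Leaving out 1 array gave 7234 to 7660, and the remaining alternatives stayed within 1.5 times of 9040. In all alternatives 1 member gene was called higher, and 4 were called lower, or 5 after quantile normalization, where Sfrp5 joined. Without treated replicate 3 the probe set 1423023_at, which was not called, stood for Sfrp5, so the call of 1436075_at in that setting did not enter the count. Sfrp4 changed sign on leaving out 1 array (range -0.31 to 0.04), as did the dimmer Sfrp5 probe set (-0.56 to 0.36) and Draxin (-0.32 to 0.01); Sfrp4 gave 0.01 and 0.04 and Sfrp5 0.14 and 0.36 in the settings concerned, and none of these was called. Over the 17 member probe sets and their alternatives, 223 comparisons kept direction and call, 2 gained a call and 4 changed sign.

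With the replicate number as a block, 9541 probe sets passed, and 1 member gene was higher and 4 were lower. Same-numbered cultures deviated together with correlations of 0.186, 0.172 and 0.072 over tested probe sets, and differently numbered cultures with correlations of -0.149 to -0.022. Every culture thus correlated best with its own number, which is a pattern in the data and is not stated in the design. Deviations cancel within a group of 3 arrays, so positive values for the same number bring negative values for the others. The source of this pattern was not tested. The sources used here do not say that a number marks a shared explant, so the numbers were not taken as pairs. Low signal limits what can be said of Dkk1, Wif1 and the treated levels of Sfrp1.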

Other observations

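The genes beside the members on the chromosome were looked at after the members' values were seen, as the 2 nearest protein-coding genes on each side in the RefSeq order for GRCm38.p6. Of 36 such neighbours 24 were tested; 6 were called lower and 3 higher by limma, 37.5% in all, where 41.1% of all tested genes were called. None of the tested neighbours of Sfrp1 or Sfrp2 passed: beside Sfrp1, Golga7 changed by -0.23 ± 0.10 (SE; limma adjusted p = 0.0864), Gins4, a DNA replication factor, by -0.08 ± 0.12 and Tcim by 0.27 ± 0.28, and beside Sfrp2, the innate immune receptor Tlr2 changed by -0.35 ± 0.19 and Tmem131l by 0.00 ± 0.23. Dkk2, which fell, has on one side Sgms2, a sphingomyelin synthase that rose from 153 ± 13.4 (SD, n = 3) to 368 ± 69.9, and Papss1, which fell by 0.61 ± 0.12 on the log2 scale. Beside Dkk1, which was too dim to test, Prkg1, a cyclic GMP-dependent kinase, fell from 558 ± 54.9 to 267 ± 28.2. Beside Frzb, 3 genes were tested and 0 passed, with changes from -0.14 to 0.16.

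Wnt2, a ligand below the array median on all 6 arrays, was the one additional ligand called higher in the fit with no filter. Its signals were 5.01, 4.32 and 2.44 in controls and 27.3, 60.0 and 26.8 in treated cultures. Signals this low were not separated from background, so no size of change is given; it was singled out after its values were seen.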
